A study of Mus musculus with 69 samples.

Results

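Naive CD4+ T cells of mice lacking STAT5B were compared with those of wild type mice after culture with interleukin 7 (IL-7). The comparison rested on 6 of the 69 samples of the series, chosen by their labels: 3 wild type libraries (WT, Stat5a+/+ Stat5b+/+) and 3 libraries termed BBA (Stat5a+/- Stat5b-/-), all naive CD4+ cells given IL-7. Reads were counted per gene from poly(A) RNA, and levels are given as CPM, the count of a gene relative to the library total, with totals scaled by the trimmed mean of M values (TMM). The BBA libraries held 11345641 to 16289837 counted reads and the WT libraries 6705004, 34118295 and 10818161, so that WT replicate 1 was the shallowest and WT replicate 2 the deepest. In every pair of libraries of 1 group the counts differed by more than sampling noise.

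Cells came from pooled lymph nodes and spleens of mice 8 to 16 weeks old, were sorted as naive cells with low CD44, and were cultured with IL-7 for 12 to 16 hours. BBA mice carried 1 chromosome without the whole Stat5a/Stat5b locus and 1 chromosome without Stat5b, so that they also had only 1 Stat5a allele. The alleles were germline: every cell of the animal carried them, before as well as during culture. Further libraries were used beside these for reference: 2 of AAB mice (Stat5a-/- Stat5b+/-) with IL-7, 3 WT and 2 BBA without cytokine, and 2 WT and 2 BBA of naive CD8+ T cells with IL-7. The study describes its replicates as biological, from different mice and trials, but no label ties a library to a mouse or a trial.

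IL-7 is the survival cytokine of naive T cells. It binds a receptor made of IL-7Rα and the common γ chain, whose kinases JAK1 and JAK3 phosphorylate STAT5A and STAT5B. These close paralogs pair, enter the nucleus and bind the palindromic GAS motif, and their best known targets include inhibitors that feed back on the receptor, such as Cish, and the survival gene Bcl2. In most lymphocytes STAT5B is the more abundant paralog.

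The targeted genes were examined first. Stat5b (chr11:100780731-100850724, minus strand, GRCm38) stood at 305, 349 and 374 CPM in WT and at 128, 128 and 135 CPM in BBA, a log2 fold change of -1.38 ± 0.09 (SE; edgeR quasi-likelihood test, adjusted p = 3.36e-05). The groups did not overlap, yet reads assigned to Stat5b remained in each BBA library at a fold 2.60 lower than in WT. Which part of the gene the alleles lack was not checked against the reads, so these values follow the label without measuring protein. Stat5a (chr11:100859351-100885169, plus strand) stood at 56.9, 65.0 and 33.8 CPM in WT and at 46.8, 35.6 and 36.7 CPM in BBA. That difference did not pass (log2 fold change -0.37 ± 0.23, adjusted p = 0.338), and the WT libraries spread across the BBA range. Per kilobase of merged exons, Stat5b was the more abundant paralog in WT with IL-7, at 55.0, 63.1 and 67.5 CPM per kb against 7.98, 9.11 and 4.74 for Stat5a. In BBA cells Stat5b reads per kb (23 to 24.4) still exceeded those of Stat5a (4.99 to 6.55), and in AAB cells Stat5a reads were almost absent, at 1.88 and 0.94 CPM.

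The labelled cell type was checked against its markers. The summed level of 7 CD4+ T cell markers was 2220 to 2490 CPM in WT and 2431 to 2792 CPM in BBA, and 2 CD8 markers summed to 17.3 to 27.0 and 17.0 to 26.3 CPM. Markers of other cells were low but not equal between the genotypes. B cell markers (9 of 12 in the table) summed to 8.56 to 12.7 CPM in WT and to 72.6, 16.9 and 33.6 CPM in BBA, and myeloid and dendritic cell markers (16 of 17) to 38.2 to 59.4 and to 200.1, 62.7 and 86.5 CPM. BBA replicate 1 was thus highest for both. Of the 3 B cell markers tested Cd79a was called higher, and of the 5 myeloid markers tested the 4 genes of MHC class II presentation, Cd74, H2-Aa, H2-Ab1 and H2-Eb1, were called higher. Cd74, the invariant chain, stood at 7.38, 7.97 and 5.53 CPM in WT and at 78.1, 13.9 and 25.8 CPM in BBA. Natural killer cell markers other than Eomes summed to at most 0.54 CPM in WT and to 1.19, 1.5 and 14.4 CPM in BBA, the last with the NK receptor gene Ncr1 at 4.16 CPM in BBA replicate 3. Of the other lists, 6 of 11 erythroid and platelet markers were at 0 in all 6 libraries and the list summed to 8.90 to 10.04 CPM in WT and 12.4 to 15.1 in BBA. The 3 measured genes of the γδ and NKT cell list summed to 29.1 to 37.2 and 41.4 to 42.8 CPM. Nearly all of this was Cd1d1, which encodes an antigen-presenting molecule, at 36.7, 36.8 and 28.7 against 38.15, 41.9 and 40.1 CPM. Zbtb16 was at 0.443, 0.120 and 0.276 CPM in WT and at 3.20, 0.859 and 2.51 CPM in BBA, and Sox13 at most 0.240 CPM. The 17 effector and memory markers summed to 1190.0 to 1204 CPM in WT and to 1169 to 1512 CPM in BBA, and 2 of 10 tested (Ccl5 and Maf) were called higher. The part of other cells in the results below was not tested, and a change in the number of cells of a type cannot be told apart from a change in RNA per cell.

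**Figure D1:**
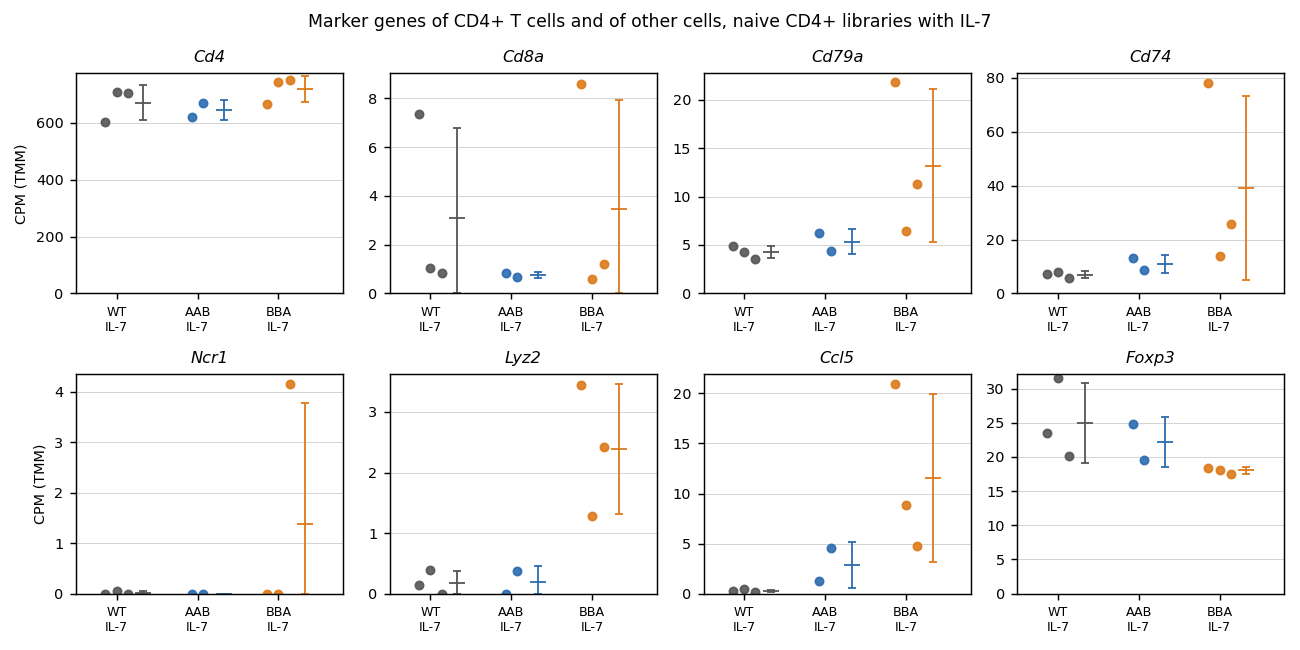
Levels in CPM (y axes) of 8 marker genes in naive CD4+ libraries with IL-7, 1 point per library, with mean ± SD cut at 0, for WT (grey), AAB (blue) and BBA (orange). Cd4 was high in every library, while Cd79a and Cd74 were highest in BBA replicate 1 (21.8 and 78.1 CPM) and Ncr1 was above 0.1 CPM only in BBA replicate 3.

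With IL-7, 513 genes differed between BBA and WT naive CD4+ T cells, in near equal numbers up and down. Of 9248 genes tested, 267 were higher and 246 lower in BBA at an adjusted p below 0.05 and a fold above 1.5, which are 2.89% and 2.66% of the genes and 5.55% together. Levels did not overlap between the 3 WT and the 3 BBA libraries for 510 of the called genes, while the same was true of 33.3% of all genes tested. The median log2 fold change of all genes tested was 0.00063, a value that the TMM scaling sets near 0. When single libraries were left out, 359 to 551 genes were called, and 341 to 440 of the 513 calls were kept in the same direction.

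Of the 12 most decreased named genes, 10 were called higher with IL-7 than without cytokine in WT cells. Of all 10245 genes tested there, 950 were called higher. The WT libraries with IL-7 enter both comparisons, so that a high value in them favours both calls, and this overlap is no separate evidence. Ecm1, an extracellular matrix protein, stood at 1632, 2385 and 2026 CPM in WT and at 60.1, 98.9 and 85.0 CPM in BBA (24.5-fold lower, log2 fold change -4.61 ± 0.26, adjusted p = 1.78e-05). Without cytokine it was at 45.9 to 46.7 CPM in WT, so that BBA cells with IL-7 were near the level of WT cells that had received none. Rgs1, which limits signalling from chemokine receptors, stood at 97.2, 102 and 89.0 CPM in WT and at 8.37, 9.31 and 3.55 CPM in BBA (-3.72 ± 0.32, adjusted p = 0.000163). Gpr34, a receptor for lysophosphatidylserine, was at 68.0, 85.1 and 48.9 CPM against 2.43, 2.65 and 2.69 CPM (-4.69 ± 0.22, adjusted p = 9.74e-06). The groups were far apart in each of these genes. Map6, a microtubule stabiliser, was at 30.2, 39.5 and 42.3 CPM in WT and at most 1.65 CPM in BBA (-5.45 ± 0.32). The laminin chain Lama5 (-5.52 ± 0.54), D630039A03Rik (-5.18 ± 0.29), Drc1 (-4.95 ± 0.64), the amino acid transporter Slc7a8 (-4.21 ± 0.38), the guanylate cyclase subunit Gucy1a3 (-4.11 ± 0.26) and the adhesion molecule Amica1 (-3.63 ± 0.19) were all called lower.

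Of the 12 most decreased genes the remaining 2, among them the one with the largest fold, were not called with IL-7 in WT (Slc15a2 at 0.88 ± 0.62 and Arhgap31 at 0.49 ± 0.38). Slc15a2, a peptide transporter, stood at 107, 54.1 and 206 CPM in WT and at 0.237, 2.08 and 0.520 CPM in BBA (-7.01 ± 1.51, adjusted p = 0.0193), and Arhgap31, a GTPase activating protein, at 76.3, 43.3 and 98.1 against 3.86, 5.37 and 7.62 CPM (-3.69 ± 0.85, adjusted p = 0.0239). In the 2 AAB libraries, however, Slc15a2 stood at 96.6 and 0.094 CPM and Arhgap31 at 90.3 and 5.08 CPM. Both lie on chromosome 16, at 36750177 to 36784962 and 38598340 to 38713274. Their calls were lost when BBA replicate 1, BBA replicate 3 or WT replicate 1 was left out, and that of Arhgap31 also without BBA replicate 2 or WT replicate 3.

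Feedback inhibitors of cytokine receptors were lower where they were called. Of 17 SOCS, CIS and related inhibitors tested, 3 were called lower and 0 higher, with a list median of -0.07. Cish, which blocks STAT5 at the receptor, stood at 99.6, 129.7 and 108 CPM in WT and at 18.7, 25.2 and 12.3 CPM in BBA (5.89-fold lower, log2 fold change -2.56 ± 0.28, adjusted p = 0.000652). Socs1, an inhibitor of JAK kinases, was at 81.4, 80.7 and 84.2 against 40.6, 43.1 and 37.3 CPM (-1.01 ± 0.08, adjusted p = 8.71e-05). Socs2, a regulator of growth hormone signalling, was at 6.2, 9.32 and 6.81 against 1.13, 1.29 and 0.693 CPM (-2.81 ± 0.35, adjusted p = 0.00139), and without WT replicate 2 it was too low to test. In these 3 genes every BBA library was below every WT library. Socs3, in contrast, stood at 203, 253 and 251 CPM in WT and 176, 242 and 232 CPM in BBA and was not called (-0.10 ± 0.12, adjusted p = 0.633).

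Receptors and kinases of the common γ chain family went both ways. Of 11 tested, Il7r and Jak3 were called higher and Il2ra and Il4ra lower, with a median of -0.05. Il7r, which encodes the IL-7 binding chain, stood at 866, 625 and 678 CPM in WT and at 1474, 1169.7 and 1283 CPM in BBA (1.83-fold higher, 0.87 ± 0.14, adjusted p = 0.00455). Jak3, the kinase on the γ chain, was at 73.9, 99.1 and 91.9 against 171, 209 and 187 CPM (1.11 ± 0.15, adjusted p = 0.00167). The γ chain itself, Il2rg, and Jak1 were not called (-0.02 ± 0.09 and 0.35 ± 0.10). Il4ra, the IL-4 receptor chain, fell from 828, 982 and 862 CPM to 369, 486 and 443 CPM (-1.02 ± 0.11, adjusted p = 0.000553). Il2ra, the high affinity IL-2 receptor chain CD25, fell from 23.2, 60.3 and 38.1 CPM to 6.05, 9.09 and 2.77 CPM (-2.74 ± 0.45, adjusted p = 0.0057), with a wide spread among WT libraries. Of 15 receptors for other cytokines edgeR and DESeq2 called 0 at the fold limit, with 5 at an unadjusted p below 0.05. Among all 9248 genes tested by edgeR, 2530 had such a p.

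**Figure D2:**
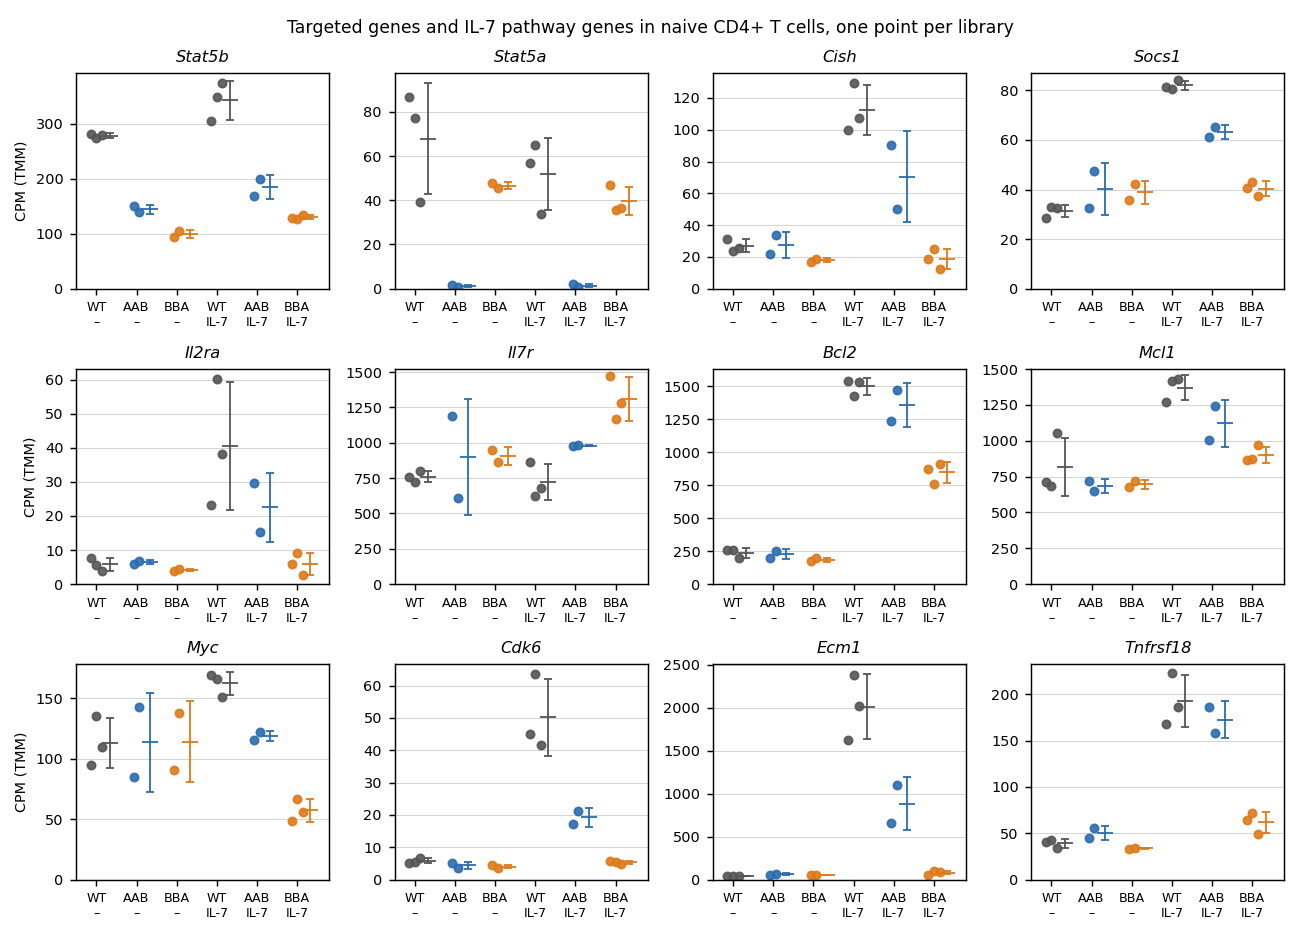
Levels in CPM (y axes) of the targeted genes and of 10 genes of the IL-7 pathway or among those most decreased, in naive CD4+ libraries without cytokine (–) and with IL-7, 1 point per library, with mean ± SD cut at 0, for WT (grey), AAB (blue) and BBA (orange). Cish, Cdk6, Il2ra, Ecm1 and Tnfrsf18 were high only with IL-7, where BBA libraries were below WT, and Il7r was above WT in the 3 BBA libraries with IL-7.

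Among survival genes, Bcl2, Mcl1 and Bcl2l11 were called lower in BBA. Bcl2, the main anti-apoptotic target of IL-7, stood at 1539, 1425 and 1531 CPM in WT and at 875, 757 and 909 CPM in BBA (-0.81 ± 0.10, adjusted p = 0.00119). Bcl2l11, which encodes the pro-apoptotic BIM, was at 205, 233 and 230.4 against 130.3, 131 and 120.5 CPM (-0.79 ± 0.07, adjusted p = 0.000163). Mcl1, a second anti-apoptotic member, was at 1269.5, 1417 and 1429 against 867, 874 and 969 CPM and lay at the fold limit (-0.59 ± 0.09, adjusted p = 0.00472). Its call was lost without BBA replicate 1 or 2 or WT replicate 2 or 3, with DESeq2, with size factors of DESeq2 and in a fit of the 6 libraries alone. In all, 2 of 3 anti-apoptotic and 1 of 7 pro-apoptotic members tested were called lower and 0 higher. Bcl2l1 and Bax were not called (0.02 ± 0.19 and -0.19 ± 0.12). The survival kinase Pim1 was lower at an adjusted p of 0.00112 but below the fold limit (-0.55 ± 0.07), and Pim2 was slightly higher (0.23 ± 0.06, adjusted p = 0.0498), so that edgeR and DESeq2 called 0 of 3 PIM kinases at the fold limit.

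Growth and cell cycle entry genes were called in both directions. Of 18 D cyclin, G1 kinase and CDK inhibitor genes listed, 11 were tested, 3 called higher and 2 lower, with a median of 0.08. Myc, a master regulator of growth, stood at 169, 166 and 151 CPM in WT and at 48.4, 66.9 and 56.2 CPM in BBA (2.80-fold lower, -1.49 ± 0.11, adjusted p = 7.61e-05), and was the only 1 of 10 MYC-MAX network genes called. Cdk6, a kinase of G1 phase, was at 45.1, 63.6 and 41.7 against 5.81, 5.51 and 4.76 CPM (9.21-fold lower, -3.20 ± 0.18, adjusted p = 1.78e-05). Its partner Ccnd2 was lower (-0.63 ± 0.08), while Ccne1 (1.17 ± 0.19), the retinoblastoma gene Rb1 (0.70 ± 0.10) and its relative Rbl1 (0.64 ± 0.06) were higher, and Ccnd3, Cdk4 and Cdkn1b were not called. Of 25 mitosis genes listed, 6 were tested and all 6 were positive (median 0.43), 3 with an unadjusted p below 0.05 by edgeR. The 29 replication genes tested had a median of 0.07. Called higher were 1 of 29 replication genes (Rpa1, 0.60 ± 0.13) and 1 of 6 mitosis genes (Kif23, 0.92 ± 0.25). Neither of these calls held in every alternative: that of Rpa1 was lost with no filter on low counts and when any 1 library other than BBA replicate 2 was left out, and that of Kif23 when any 1 of the 6 was left out.

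Biosynthetic lists had negative medians, and few of their members passed the fold limit. Ribosome biogenesis genes had a median of -0.33, and 8 of 43 tested were called lower and 0 higher. At an adjusted p below 0.05 and any fold, 21 of the 43 were lower and 0 higher, where 6.37% of all genes tested were lower by that rule. Among them Polr1b, a subunit of RNA polymerase I, stood at 44.8, 57.1 and 53.2 CPM in WT and at 26.9, 36.5 and 28.6 CPM in BBA (-0.74 ± 0.14, adjusted p = 0.00999), and Rrp1b (-0.70 ± 0.12), Gar1 (-0.69 ± 0.17) and Nop2 (-0.66 ± 0.12) were close to it. The count fell to 4 without BBA replicate 1, to 4 without BBA replicate 3 and to 5 without WT replicate 1. Cytosolic ribosomal protein genes were negative in all 65 tested, from -0.50 to -0.07 with a median of -0.28. By edgeR 47 had an unadjusted p and 15 an adjusted p below 0.05, but 0 passed the fold limit of 1.5, with DESeq2 also 0. Likewise 20 of 20 chaperonin and heat shock genes (median -0.25), 59 of 62 oxidative phosphorylation subunits (-0.14) and 23 of 24 citric acid cycle genes (-0.13) were negative. Of these 11, 3 and 3 had an adjusted p below 0.05, 15, 19 and 7 an unadjusted one, and 0 passed the fold limit with edgeR or DESeq2. Over all genes, 2530 of 9248 had an unadjusted p below 0.05 by edgeR. The oxidative phosphorylation and citric acid cycle counts were near that share. Single enzymes and factors were called: the sterol gene Acat2 (-1.56 ± 0.13), the enolase Eno1 (-1.06 ± 0.13), the translation factor Eif5a (-0.93 ± 0.12), the pyrimidine enzyme Cad (-0.72 ± 0.13), the guanine nucleotide enzyme Impdh2 (-0.67 ± 0.07) and the sterol enzyme Mvd (-0.84 ± 0.17) were lower, while the lactate dehydrogenase gene Ldhb (0.67 ± 0.16) and the acetyl-CoA synthetase gene Acss2 (0.72 ± 0.16) were higher. Fnip1, a folliculin partner that acts in nutrient sensing, was at 208, 206 and 189.6 against 74.7, 79.8 and 80.3 CPM (-1.34 ± 0.06, adjusted p = 8.51e-06). Xbp1, Trib3 and Herpud1 of the stress response were lower (-0.93 ± 0.12, -0.65 ± 0.13 and -0.65 ± 0.06) and Atf6 higher (0.83 ± 0.22). On the other side, Wars, the tryptophanyl-tRNA synthetase that interferon also induces, was 2.1-fold higher and the only 1 of 20 synthetases called. The calls of Gar1 (without BBA replicate 2 or 3 or WT replicate 1 or 3), Nop2 (BBA replicate 1), Mvd (BBA replicate 3 or WT replicate 2), Trib3 (BBA replicate 1 or WT replicate 2), Ldhb (BBA replicate 2 or 3 or WT replicate 1 or 2), Acss2 (BBA replicate 1 or 3 or WT replicate 1 or 3) and Atf6 (any but BBA replicate 2) were lost when those libraries were left out. The glucose transporters Slc2a1 and Slc2a3, Ldha, Slc7a5 and Slc3a2 were not called, and Hk2 was too low to test, at 0.260 to 1.65 CPM.

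TNF superfamily genes moved in a single direction among the calls. Of 22 tested, 6 were called lower and 0 higher, with a median of -0.11. The cytokine gene Tnf stood at 24.8, 35.2 and 23.9 CPM in WT and at 2.43, 3.65 and 2.86 CPM in BBA (9.33-fold lower, -3.22 ± 0.22, adjusted p = 5.17e-05). Lymphotoxin α, Lta, was at 83.8, 114 and 92.4 against 16.6, 11.9 and 14.7 CPM (-2.73 ± 0.24, adjusted p = 0.000183). The costimulatory receptor GITR, Tnfrsf18, was at 168, 223 and 187 against 64.1, 71.9 and 49.6 CPM (-1.62 ± 0.15, adjusted p = 0.000222). OX40, Tnfrsf4, was at 66.7, 86.0 and 81.0 against 30.9, 31.1 and 27.0 CPM (-1.37 ± 0.10, adjusted p = 8.75e-05). Every BBA library was below every WT library in these 4 genes.

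Of 11 genes linked to regulatory T cells that were tested, 5 were called lower and 0 higher (median -0.60), and the defining gene was not called. DESeq2 called 1 of the 11 higher, and filterByExpr 1 of 15. The genes called lower were Il2ra, Tnfrsf18, Tnfrsf4, Capg (-0.93 ± 0.16) and Ikzf4, of which the first 3 also mark activated conventional cells. Ikzf2, the Helios gene, was at 3.1, 5.07 and 4.6 CPM in WT and at 22.5, 8.73 and 5.37 CPM in BBA (1.52 ± 0.48, adjusted p = 0.0766). Foxp3 stood at 23.5, 31.5 and 20.1 CPM in WT and at 18.5, 18.1 and 17.5 CPM in BBA (-0.47 ± 0.16, adjusted p = 0.0969). The 6 regulatory T cell markers tested summed to 302 to 402 CPM in WT and to 150.4 to 165 CPM in BBA with IL-7, but to 83.4 to 106 and 125 to 146 CPM without cytokine. Of the gene list, 14 were tested without cytokine, and 3 were called higher in BBA and 0 lower (median 0.62). Ikzf2 was among these 3, at 7.47, 9.62 and 6.81 CPM in WT and 25.9 and 28.8 CPM in BBA (1.80 ± 0.16). Tnfrsf18 and Tnfrsf4 were themselves called higher with IL-7 than without in WT.

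The most uniform group was that of interferon-induced GTPases, and it was higher in BBA. These proteins (guanylate binding proteins and immunity-related GTPases) attack intracellular pathogens and are induced by interferons. All 14 tested of the 15 listed were called higher, with a median log2 fold change of 1.5. Their summed level was 1342 to 1611 CPM in WT and 3452 to 5097 CPM in BBA. Iigp1 stood at 22.6, 21.2 and 39.0 CPM in WT and at 391, 478 and 305 CPM in BBA (14.5-fold higher, 3.86 ± 0.42, adjusted p = 0.000647). Gbp2 was at 47.6, 58.5 and 48.9 against 338, 482 and 273 CPM (2.83 ± 0.30, adjusted p = 0.000623), and Irgm1 at 46.3, 49.1 and 46.5 against 333, 408 and 252 CPM (2.83 ± 0.24, adjusted p = 0.000163). BBA replicate 2 was the highest in each of them and replicate 3 the lowest, with all 3 above WT. Gbp10, which is not in the list, went from 0.590, 0.270 and 0.0921 CPM (4, 9 and 1 reads) to 20.2, 47.2 and 20.2 CPM and had the largest fold among the named increases, at 6.71 ± 0.61 on the log2 scale. Several of these genes have near-identical copies, among which the counting may have divided reads.

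Type I interferon-stimulated genes went the same way. Of 36 tested, 20 were called higher and 0 lower, with a median of 0.91, and Ifi47 belongs to both lists. Stat2, which transduces interferon signals, was called higher (0.82 ± 0.12). Rtp4 was at 5.16, 6.98 and 6.72 against 38.1, 53.5 and 30.1 CPM (2.68 ± 0.26, adjusted p = 0.000363). The transcription factor Irf7 was at 25.5, 31.4 and 32.1 against 73.4, 118 and 66.2 CPM (1.54 ± 0.21, adjusted p = 0.00232), and Irf1 at 188, 192 and 193 against 375, 484 and 356 CPM (1.10 ± 0.12, adjusted p = 0.000761). In these 3 genes the lowest BBA library exceeded the highest WT library. The antiviral genes Ifit1 and Ifit3 were low but called (1.36 ± 0.32 and 2.05 ± 0.43); both calls were lost without WT replicate 1 or 3 or BBA replicate 2. Of 16 MHC class I and antigen processing genes, 4 were called higher (median 0.40), namely H2-T23 (0.99 ± 0.20), Psmb9 (0.86 ± 0.16), the peptide transporter Tap1 (0.78 ± 0.10) and H2-M3 (0.66 ± 0.11), the first lost without WT replicate 1 and the last without BBA replicate 2. Cd274, the checkpoint ligand PD-L1, was at 22.3, 25.4 and 24.1 against 86.1, 121 and 70.9 CPM (1.97 ± 0.23, adjusted p = 0.000933).

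Counts were also taken without single libraries. Without BBA replicate 1, which had the highest B cell and myeloid marker sums, 14 of 14 GTPases and 17 of 34 type I genes were called higher. Leaving out other libraries left 11 to 14 GTPases, the lowest without WT replicate 1. Of the 20 type I genes, 12 stayed called without WT replicate 1, 13 without WT replicate 3 and 13 without BBA replicate 2.

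**Figure D3:**
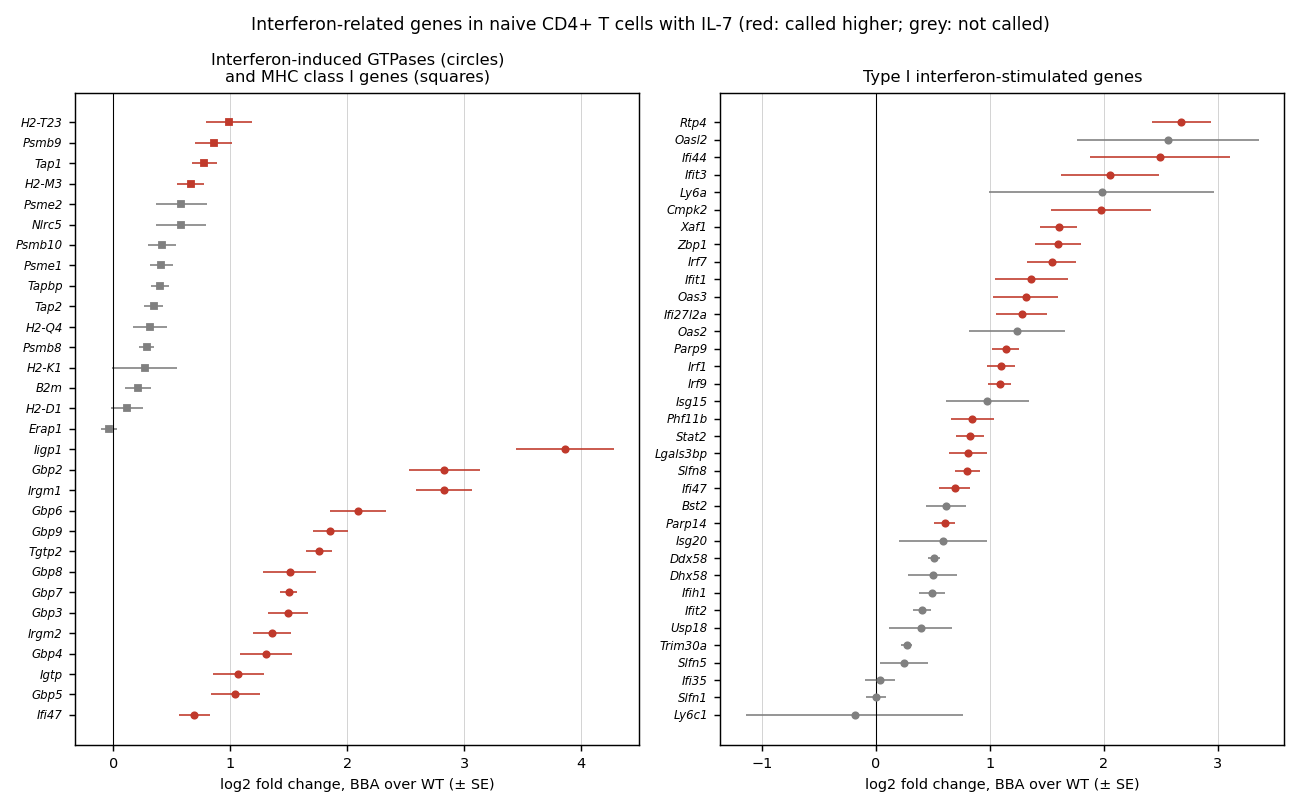
Log2 fold change of BBA over WT with IL-7 (x axes, bars ± SE) of the interferon-induced GTPases and MHC class I genes tested (left) and of 35 of the type I interferon-stimulated genes tested (right), red where called higher. All 14 GTPases lay to the right of 0 and were called, against 19 of the 35 type I genes drawn and 4 of 16 MHC class I genes.

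Since these genes moved together, the 250 bases before their RefSeq transcription starts (GRCm38.p6) were searched for letters of the interferon-stimulated response element, GAAA followed by any 2 bases and GAAA again, on either strand. Of the genes called higher, 189 had a start in the table and 22 of them (11.6%) held the letters, against 3.33% of 7172 genes tested and 3.46% of all 27025 genes of the table. Among 186 genes called lower it was 1.61%, with Socs1 (2 matches) and Stat4 among those that held them. The share within the interferon lists alone was not taken. For the GAS letters TTCNNNGAA, which read the same on both strands and can share their last letters with the other motif, the shares were 9.68% of genes called lower, 10.6% of genes called higher, 7.31% of genes tested and 8.13% of the table. The 4 interferon genes Gbp2, Ifit1, Ifit3 and Irgm1, which hold its letters, are shown as the 160 bases before the start in the direction of transcription, with the match in capitals, at chr3:142620503-142620662 (plus strand, Gbp2), chr19:34640729-34640888 (plus, Ifit1), chr19:34583369-34583528 (plus, Ifit3) and chr11:48871421-48871580 (minus, Irgm1, where 2 matches overlap).
Gbp2: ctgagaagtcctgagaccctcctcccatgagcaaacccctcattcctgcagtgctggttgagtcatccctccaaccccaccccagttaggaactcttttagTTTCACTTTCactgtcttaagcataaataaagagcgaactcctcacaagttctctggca
Ifit1: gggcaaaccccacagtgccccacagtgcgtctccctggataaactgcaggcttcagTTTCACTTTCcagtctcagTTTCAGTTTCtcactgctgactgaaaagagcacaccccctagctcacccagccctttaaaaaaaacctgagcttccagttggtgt
Ifit3: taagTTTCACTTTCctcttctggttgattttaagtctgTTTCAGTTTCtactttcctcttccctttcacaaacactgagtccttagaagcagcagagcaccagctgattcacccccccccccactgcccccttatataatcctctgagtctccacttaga
Irgm1: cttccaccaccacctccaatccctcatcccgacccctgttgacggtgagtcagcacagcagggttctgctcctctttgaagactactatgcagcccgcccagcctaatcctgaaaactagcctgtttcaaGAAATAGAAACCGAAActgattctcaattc

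The GAS letters were found in front of genes of both directions, of which 4 are shown in the same way, with the match in capitals: Lta (chr17:35205352-35205511, minus strand) and Tnfrsf18 (chr4:156026162-156026321, plus), which were lower in BBA, and Irf1 (chr11:53769854-53770013, plus) and Il7r (chr15:9529877-9530036, minus), which were higher.
Lta: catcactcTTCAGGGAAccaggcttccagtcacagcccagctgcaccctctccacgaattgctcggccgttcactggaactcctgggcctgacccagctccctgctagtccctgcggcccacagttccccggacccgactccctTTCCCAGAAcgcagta
Tnfrsf18: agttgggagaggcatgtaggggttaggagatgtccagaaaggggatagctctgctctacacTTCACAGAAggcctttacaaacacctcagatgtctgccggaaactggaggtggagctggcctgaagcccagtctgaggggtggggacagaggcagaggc
Irf1: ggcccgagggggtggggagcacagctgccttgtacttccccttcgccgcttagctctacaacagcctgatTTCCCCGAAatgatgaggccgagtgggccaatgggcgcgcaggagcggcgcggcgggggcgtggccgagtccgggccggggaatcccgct
Il7r: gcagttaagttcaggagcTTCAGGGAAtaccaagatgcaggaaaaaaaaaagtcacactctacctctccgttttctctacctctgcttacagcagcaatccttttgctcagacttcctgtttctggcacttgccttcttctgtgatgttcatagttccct

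A match of letters is a description of the sequence; binding was not measured in these libraries.

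Genes of effector and memory cells were called in both directions. Of 38 listed, 20 were tested, 3 called higher and 2 lower (Lta and Tnf), with a median of 0.28. The balance depended on the filter: 7 were higher and 2 lower of 29 tested with filterByExpr, and 13 higher and 2 lower of 38 with no filter, while DESeq2 called 5 higher and 2 lower of the 20. Eomes, a T-box factor of memory and innate-like T cells, stood at 0.443, 1.35 and 1.2 CPM (3, 45 and 13 reads) in WT and at 24.4, 27.8 and 14.6 CPM in BBA (4.33 ± 0.35, adjusted p = 0.000127). Ccl5, a chemokine of effector cells, was at most 0.420 CPM in WT and at 20.9, 8.88 and 4.76 CPM in BBA (5.10 ± 0.78, adjusted p = 0.0039). Ikzf3, the zinc finger factor Aiolos, rose from 96.2, 128 and 147 CPM to 409, 394 and 469 CPM (1.79 ± 0.14, adjusted p = 8.75e-05). BBA libraries were above WT in each of them, and Eomes also belongs to the NK markers, whose other members are given above. Maf (2.13 ± 0.53) and the follicular receptor Cxcr5 (1.62 ± 0.41) were the 2 of 7 helper lineage genes called, and Maf was highest in BBA replicate 1 (25.7 CPM, against 6.87 and 6.84 in the others). Without cytokine Maf and Cxcr5 were called higher in BBA as well. There Maf stood at 5.90, 6.93 and 6.66 CPM in WT and at 22.7 CPM in each BBA library (1.81 ± 0.16). Tbx21, the T helper 1 factor, was at most 0.520 CPM and was not tested, and Gata3 and Bcl6 were not called (0.07 ± 0.17 and 0.96 ± 0.32). Of 16 homing receptors 4 were called higher (Ccr9, Cxcr5, Gpr183 and Cxcr4; median 0.30), and this count fell to 1 without BBA replicate 1, WT replicate 1 or WT replicate 2 and to 2 without BBA replicate 3 or WT replicate 3. Calls of Maf and Cxcr5 were lost when any 1 of the WT libraries was left out, and neither gene was tested without BBA replicate 1. The calls of other receptors were lost as well, that of Ccr9 without any but BBA replicate 2 and that of Cxcr4 without BBA replicate 1 or 3 or WT replicate 1 or 2.

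Of 19 quiescence and naive T cell genes 1 was called higher and 2 lower, with a median of 0.02, and 6 had an adjusted p below 0.05. Lef1, Klf2, Ccr7 and S1pr1 were not called (between -0.21 and 0.11), and Tcf7 passed the p threshold but not the fold limit (0.53 ± 0.09). Igfbp4 was at 541, 375 and 416 against 169.5, 119.9 and 176 CPM (-1.5 ± 0.19, adjusted p = 0.0015). It lies 1726 kb from the Stat5 genes on chromosome 11 and was the only call among 56 other genes tested within 2 Mb of them. Dapl1 was lower (-1.0 ± 0.27), a call that was lost without any 1 library but WT replicate 3, and the antiproliferative gene Tob1 higher (0.74 ± 0.10). Among 25 genes of the T cell receptor complex and its kinases, 4 were called higher and 0 lower, all 4 of them surface receptors or attenuators: Ubash3b (1.08 ± 0.18), Cd5 (0.76 ± 0.12), Cd6 (0.68 ± 0.10) and Cd28 (0.66 ± 0.09). The 17 immediate early genes held 4 lower (Fos at -2.73 ± 0.27, Jun, Dusp5 and Ier2) and 2 higher (Egr1 and Dusp10). Of these, Jun was lost without any but WT replicate 2, Dusp5 without BBA replicate 2 or 3 or WT replicate 1 or 3, and Egr1 without BBA replicate 1 or 3 or WT replicate 1 or 2.

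The other named increases were not of a single kind. Fbxo27, an F-box protein, stood at 1.33, 1.32 and 1.10 CPM in WT and at 23.9, 29.2 and 31.2 CPM in BBA (4.49 ± 0.30, adjusted p = 4.32e-05). Inppl1, the lipid phosphatase SHIP2, was at 1.77, 3.60 and 3.04 against 25.0, 52.2 and 27.5 CPM (3.54 ± 0.33, adjusted p = 0.000254). In AAB cells these genes were also above WT, at 10.2 and 21.1 and at 34.3 and 31.3 CPM. Kcnf1 (3.95 ± 0.81), the ATP receptor P2rx7 (2.87 ± 0.51), H2-Aa (3.16 ± 0.78) and the GTPase-like genes Gm4951 (3.59 ± 0.63) and Gm4841 (3.22 ± 0.65) completed the list with Capn11, whose level was 0.147, 0.0599 and 0.0921 CPM in WT and 5.58, 0.215 and 15.1 CPM in BBA, so that BBA replicate 2 was near WT. The calls of H2-Aa and Capn11 were lost when any 1 WT library or BBA replicate 1 was left out, and that of Capn11 also without BBA replicate 3. That of Kcnf1 was lost without WT replicate 2 or 3 and that of Gm4841 without WT replicate 1 or 3 or BBA replicate 1.

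**Figure D4:**
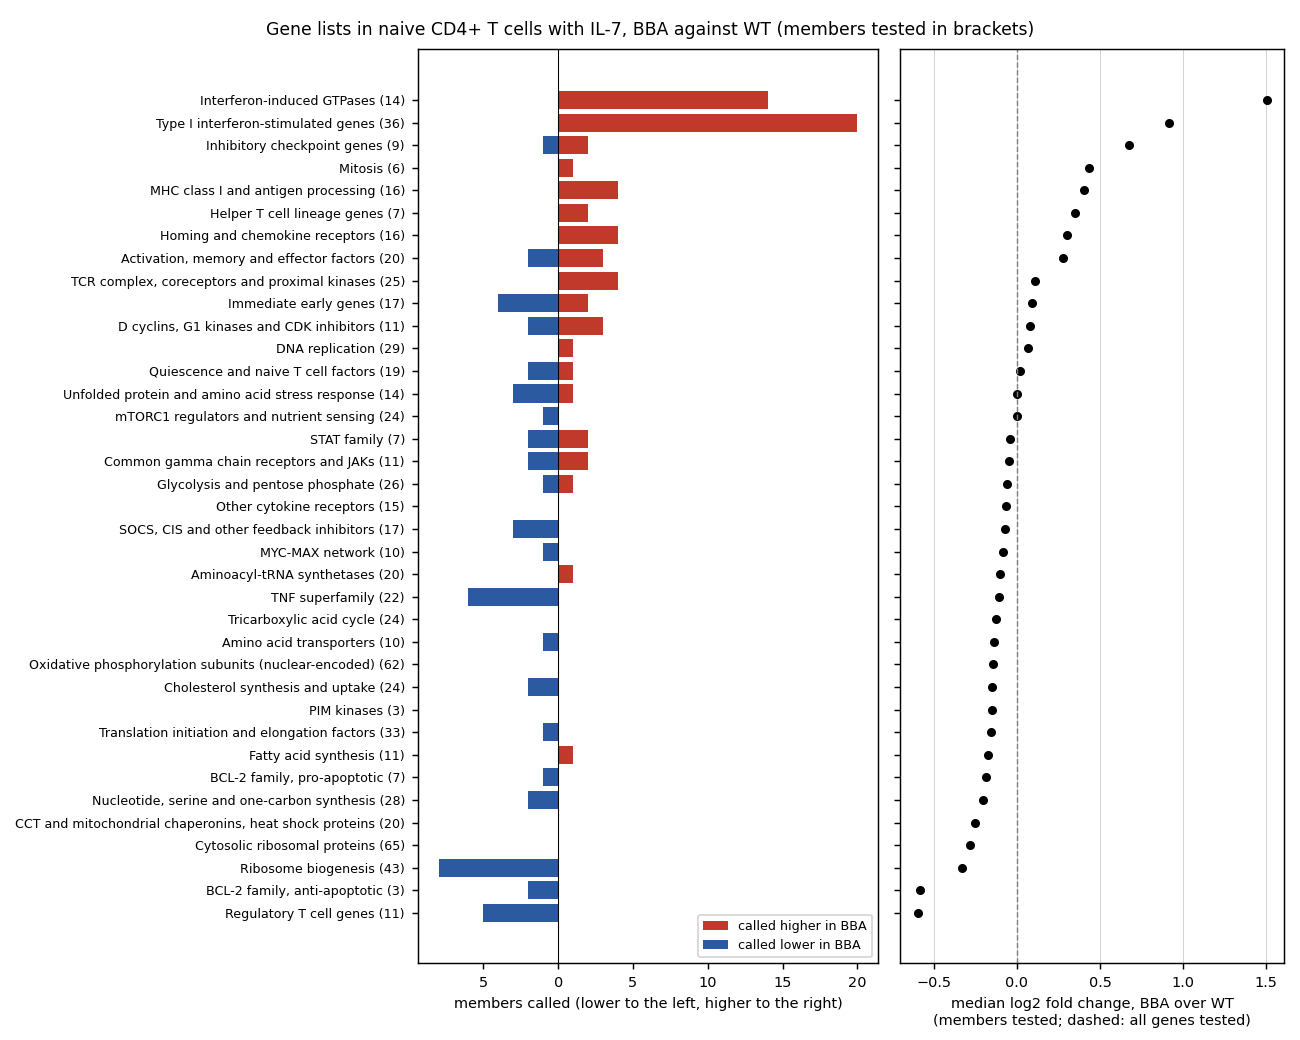
Members of each gene list called higher (red, right) or lower (blue, left) in BBA with IL-7 (left panel, x axis number of genes, members tested in brackets) and the median log2 fold change of the members tested (right panel, dashed line for all genes tested). The 2 interferon lists had the highest medians (1.5 and 0.91), and regulatory T cell genes (-0.60) and anti-apoptotic genes (-0.59) the lowest.

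BBA cells were then set against AAB cells, which lack both Stat5a alleles and keep 1 Stat5b allele. Both genotypes lack 3 of the 4 STAT5 alleles, but Stat5b was the more abundant paralog in WT. In a difference between them, the kind of paralog lost cannot be told apart from the total amount of STAT5 left. The same BBA libraries enter both comparisons, and AAB had only replicates 2 and 3. Of 9248 genes, 63 were higher and 82 lower in BBA than in AAB, 1.57% together, and the count was 94 without BBA replicate 1 and 75 without AAB replicate 3. Stat5b was lower in BBA at an adjusted p of 0.0324 but below the fold limit (-0.51 ± 0.10), and Stat5a was higher (4.81 ± 0.40). Cish stood at 90.7 and 50.4 CPM in AAB, above every BBA library (-1.91 ± 0.30, adjusted p = 0.0136), and Socs1 (-0.65 ± 0.08) and Socs2 (-1.95 ± 0.39) were also called. Ecm1 was intermediate in AAB, at 665 and 1100.1 CPM (-3.44 ± 0.26), as was Cdk6 at 17.3 and 21.2 CPM (-1.84 ± 0.20). Myc (-1.06 ± 0.12), Bcl2 (-0.68 ± 0.11), Pim1 (-0.78 ± 0.07), Tnf (-2.03 ± 0.24) and Tnfrsf18 (-1.48 ± 0.16) were lower in BBA than in AAB. For Il4ra, Il7r, Jak3 and Ikzf3 the difference did not pass (-0.21 ± 0.12, 0.42 ± 0.15, 0.62 ± 0.16 and 0.56 ± 0.15). Il4ra stood at 526 and 475 CPM in AAB, and Ikzf3 at 277 and 298 CPM.

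The interferon lists also differed between the 2 mutant genotypes. GTPases were called higher in BBA than AAB for 9 of 14 (median 1.17) and type I genes for 8 of 36 (median 0.70), with 0 lower. Gbp2 stood at 164 and 73.5 CPM in AAB, above WT and below BBA. The 2 AAB libraries were thus apart from each other, and the second was near WT. Eomes was higher in BBA than in AAB (2.74 ± 0.37). The largest of the remaining named differences were Vmn2r96, which was at 0 in both AAB libraries and at 11.9, 5.58 and 5.37 CPM in BBA, and C130046K22Rik (3.91 ± 0.65).

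The same comparison was made in WT and BBA cells that received no cytokine. The labels call these cells cultured, while the study's methods describe them as taken directly. By the account of the methods, IL-7 cannot be told apart from culture in what follows. Without cytokine 81 genes were higher and 37 lower in BBA, 1.13% of 10456 tested. The count was 71 and 38 without BBA replicate 1 or 2, and 72 and 59 without WT replicate 1 or 2. Stat5b was lower (-1.47 ± 0.09), and Igfbp4 (-1.55 ± 0.15), Dapl1 (-2.37 ± 0.30), Inppl1 (3.14 ± 0.14), Fbxo27 (3.27 ± 0.45) and Eomes (2.86 ± 0.39) were called in the same direction as with IL-7. Of GTPases 11 of 14 were called higher (median 1.08), their summed level being 1707 to 1715 CPM in WT and 3481 CPM in each BBA library. Of 41 type I genes 3 were called higher, among them Stat2 and Zbp1, and 0 lower. Their log2 fold changes were positive for 33, with a median of 0.31 against -0.0029 for all genes tested. Cish was at 31.4, 23.7 and 25.4 CPM in WT and 16.9 and 18.7 CPM in BBA and was not called (-0.58 ± 0.20, adjusted p = 0.324), nor were Myc, Cdk6, Bcl2 or Tnf. Immediate early and heat shock genes were high and uneven without cytokine (Jun from 146 to 696 CPM and Hspa1b from 10.8 to 363 CPM, against at most 36.4 and 1.54 CPM with IL-7). The part of this difference in the results was not tested.

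The difference of the BBA effect between the cultures was tested as an interaction. Of 10477 genes 116 were called, 1.11%: the BBA effect was lower with IL-7 for 94 and higher for 22. Those lower included Ecm1 (-4.80 ± 0.30, adjusted p = 2.83e-06), Cish (-1.98 ± 0.38, adjusted p = 0.02), Socs1 (-1.33 ± 0.18), Il4ra (-1.35 ± 0.14), Myc (-1.52 ± 0.29), Cdk6 (-2.66 ± 0.29), Tnf (-3.15 ± 0.42), Lta (-2.69 ± 0.43), Tnfrsf4 (-1.99 ± 0.23) and Fnip1 (-1.30 ± 0.12). None of these named genes was called without cytokine, though Cish (-0.58) and Tnfrsf4 (0.59) lay near the fold limit there. Those higher included Irgm1 (1.95 ± 0.30), Rtp4 (2.36 ± 0.33) and Ikzf3 (1.06 ± 0.20). Of the interferon lists, 1 of 14 GTPases and 3 of 41 type I genes were called for the interaction, and 0 were lower. Their median differences were 0.66 and 0.58, against 0.0013 for all genes tested. Socs3 was among the interactions (-0.95 ± 0.21), being higher in BBA without cytokine (0.84 ± 0.15) and not called with IL-7. For Bcl2, Il7r and Il2ra the interaction did not pass (-0.44 ± 0.19, 0.61 ± 0.29 and -2.29 ± 0.65).

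The levels of WT cells in both cultures put these values in order. Between WT cells without cytokine and with IL-7, 16.7% of 10245 genes differed (950 higher and 758 lower with IL-7). The IL-7 libraries are those of the BBA comparison. If the cells without cytokine were taken directly, an effect of IL-7 cannot be told apart from one of culture. Bcl2 rose from 258, 261 and 195 CPM to at least 1425 CPM (2.66 ± 0.13), and BBA cells with IL-7 reached 757 to 909 CPM from 172 and 194 CPM. Cish rose in WT (2.07 ± 0.13) and stood in BBA at 16.9 and 18.7 CPM without and 12.3 to 25.2 CPM with IL-7. Myc, by contrast, was at 94.6 to 135 CPM without cytokine and 151 to 169 CPM with it in WT, below the fold limit. In BBA it was at 90.2 and 138 CPM without and 48.4 to 66.9 CPM with IL-7. Irf7, Gbp2, Rtp4 and Irgm1 were lower with IL-7 in WT (-1.58, -1.04, -2.31 and -1.50).

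**Figure D5:**
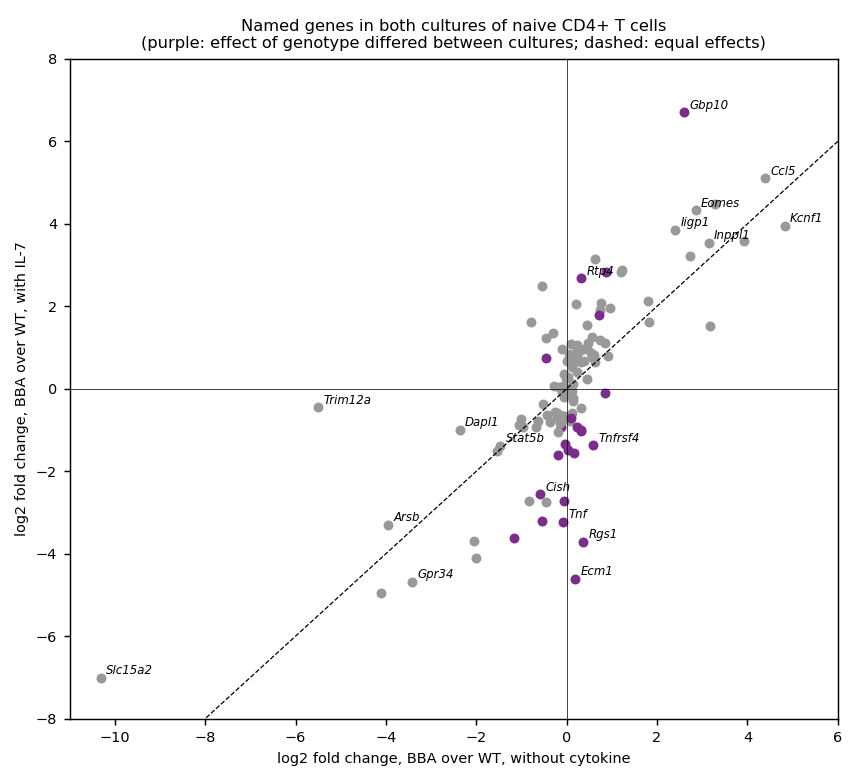
Log2 fold change of BBA over WT with IL-7 (y axis) against that without cytokine (x axis), 1 point per named gene tested in both, purple where the interaction was called, dashed line for equal effects. Ecm1, Rgs1, Tnf and Cish lay below the line near 0 on the x axis, while Stat5b, Inppl1 and Eomes departed from 0 in both cultures.

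Naive CD8+ T cells of the same genotypes with IL-7, in libraries of their own, gave 117 genes higher and 155 lower in BBA, 2.69% of 10119 tested (2 against 2 libraries). Of 498 CD4+ calls tested in CD8+ cells, 169 (33.9%) were called in CD8+ in the same direction, which was 64.0% of 264 CD8+ calls tested in CD4+, and 0 were called in the opposite direction. The sign was the same for 490 (98.4%) of the CD4+ calls, while the same share over all genes tested in both was not taken. Across the 9192 genes tested in both, the log2 fold changes had a Pearson r of 0.746, where genes of 1 library are not independent. Cish (-4.29 ± 0.18), Cdk6 (-2.94 ± 0.27), Myc (-1.43 ± 0.19), Bcl2 (-0.74 ± 0.12), Tnf (-3.38 ± 0.37) and 12 of 14 GTPases were called in CD8+ cells in the direction seen in CD4+ cells. The CD8+ calls rest on few libraries: 24 and 23 remained without BBA replicate 1 or 2, and 9 and 12 without WT replicate 1 or 2.

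A difference between the lineages was called for 1 gene of 9556 (0.0105%), Sh2d1a, which encodes the adaptor SAP. Its BBA effect was 0.12 in CD4+ and 1.28 in CD8+ cells (difference -1.17 ± 0.14, adjusted p = 0.0295). At an unadjusted p below 0.05 there were 548 genes, with DESeq2 33 were called and with no filter 49. The call was lost when any 1 CD4+ library, BBA replicate 1 of CD8+ or either WT library of CD8+ was left out (0 genes), and 2 genes were called without BBA replicate 2 of CD8+. Socs1 was lower in CD4+ cells (-1.01) and at 0.08 ± 0.23 in CD8+ cells, but this difference did not pass (-1.09 ± 0.23, adjusted p = 0.313), nor did that of Cish (1.72 ± 0.42, adjusted p = 0.37).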

How the data were processed

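Poly(A) RNA was sequenced as single-end reads of 50 bases, and the authors deposited raw counts of reads per gene. Processing notes of the submitters name TopHat2, HTSeq, Cufflinks and the build mm9, whereas the methods name mm10. Neither the gene annotation nor a strand setting is given in the sources used here, so genes that overlap on opposite strands cannot be told apart. Groups were taken from the sample titles. Of the naive CD4+ libraries, 2 whose title and treatment label disagree were left out.

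Genes were kept by a re-implementation of the HTSFilter rule (Jaccard index over 100 thresholds from 1 to 200, loess span 0.3). Counts were scaled by TMM and tested with the quasi-likelihood test of edgeR 4.0.16 in its legacy form (R 4.3.3), with WT, AAB and BBA libraries of a culture in 1 fit for the spread and Benjamini-Hochberg adjustment over all genes kept. A gene was called at an adjusted p below 0.05 and a fold above 1.5. CPM were computed on the TMM totals of the 15 naive CD4+ libraries, and of the CD8+ libraries on their own. In counts simulated for the 6 libraries (9248 genes, 50 changed per fold), 41 genes were recovered at 1.75-fold, 49 at 2-fold and 50 at 3-fold and 4-fold, with 10 false calls.

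Named genes were the targets, the 12 called genes with the largest fold in each direction (with normalized counts averaging 50 or more and groups that did not overlap), up to 4 called members per list and direction, a fixed set of pathway genes, and up to 3 genes per direction of the other comparisons. The gene lists and this rule were chosen with earlier results of these data known. Cd4, Ikzf2, Ikzf4, Ifi47, Zbp1, Sh2d1a, Ncr1, Cd79a, Cd74, H2-Ab1, H2-Eb1, Cst3, Cd1d1, Zbtb16 and Sox13 fell outside this rule and were named after their values were seen. Alternatives were other filters, DESeq2 1.42.0, its size factors, a replicate block, other sets of libraries and limits, and leaving out each library. Some results that belong to the named gene rule are not reported here.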

Additional observations from a re-analysis of the deposited data

Results flagged for a closer look

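Interaction tests picked out 27 of the named genes, for which the effect of the BBA genotype in naive CD4+ T cells differed between culture with IL-7 and no cytokine. Values are the log2 fold change of BBA over WT with IL-7 minus that without cytokine, by edgeR's quasi-likelihood test. The largest negative differences were those of D630039A03Rik (-6.06), Map6 (-5.77), Ecm1 (-4.80), Rgs1 (-4.11) and Slc7a8 (-4.06). Cytokine and receptor genes followed with Tnf (-3.15), Lta (-2.69), Tnfrsf4 (-1.99), Tnfrsf18 (-1.42) and Il4ra (-1.35). Inhibitors of cytokine signals were Cish (-1.98), Socs1 (-1.33) and Socs3 (-0.95). Growth and metabolism were represented by Cdk6 (-2.66), Acat2 (-1.71), Myc (-1.52), Fnip1 (-1.30), Xbp1 (-1.16) and Eif5a (-0.81). The remaining negative values were those of the adhesion gene Amica1 (-2.49) and of Stat4 (-0.79).

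Positive differences were found for Gbp10 (4.11), Klrd1 (3.24), Rtp4 (2.36), Irgm1 (1.95), Tob1 (1.19) and Ikzf3 (1.06). Klrd1, a chain of an NK and T cell receptor, stood at 6.14, 10.4 and 4.81 CPM in WT and 2.40 and 2.21 CPM in BBA without cytokine, and at 2.51, 1.95 and 1.66 CPM in WT and 7.48, 3.29 and 7.54 CPM in BBA with IL-7.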

How the results depend on the processing

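Of 106 named genes called in BBA against WT with IL-7, 0 reversed under the alternatives run, and 106, 105, 105 and 105 stayed called with filterByExpr, no filter, DESeq2 size factors and DESeq2. The count of 513 genes was 94 with Bonferroni adjustment (29 higher, 65 lower), 246 at a fold limit of 2, and 359 to 551 without single libraries. With the other settings it was 511 to 756. Of the 106 named calls, 15 to 27 were lost without single libraries, those no longer tested included. IL-7 against no cytokine in WT (1708) gave 1538 to 2156. Other counts moved more. BBA against AAB (145) gave 241 with no filter, 256 with DESeq2 and 75 to 197 without single libraries. BBA against WT without cytokine (118) gave 501, 225 and 38 to 115. The interaction with IL-7 (116) gave 193, 228 and 79 to 150, CD8+ cells (272) 1001, 606 and 9 to 24, and the interaction with lineage (1) 49, 33 and 0 to 2. Of the interaction with IL-7, 38.6% of calls were positive with DESeq2 and 39.9% with the replicate block, against 19.0%. Where an arm kept 1 library, it was assumed to vary like the others. The causes were not tested.

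The replicate block gave 628 genes in BBA against WT with IL-7, 230 against AAB, 206 without cytokine, 218 and 0 for the interactions with IL-7 and lineage, and 604 in CD8+. Of the named calls with IL-7 it kept 105 of 106, without Rpa1. The main test does not take the numbers to pair the samples, and whether they mark a shared batch was not tested. Deviations of same-numbered WT and BBA libraries correlated at 0.132, 0.228 and 0.0777. Those of different numbers gave -0.181, -0.147, -0.122, -0.118 and 0.0609, and WT replicate 3 correlated best with BBA replicate 1 (0.0828). The 2 numbers that AAB shared with IL-7 gave higher correlations, 0.453 and 0.402 with BBA and 0.370 and 0.304 with WT.

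Uncalled genes whose log2 fold change took both signs when single libraries were left out were Il2rg (-0.0753 to 0.0609), Socs3 (-0.1933 to 0.0285), Bcl2l1 (-0.1018 to 0.1281), Ccnd3 (-0.1078 to 0.146), Cdk4 (-0.1728 to 0.0229), Slc3a2 (-0.0883 to 0.0536), Klf2 (-0.1541 to 0.0611), Lef1 (-0.1127 to 0.0613), Gata3 (-0.0941 to 0.2166) and Trim12a (-0.9622 to 0.1196, positive without BBA replicate 2). WT replicate 1 had the lowest depth, which limits genes of few reads.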

Other observations

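Trim12a, Gm5779 and Arsb differed widely between libraries of 1 genotype. Trim12a (chromosome 7) stood at 143, 3.72 and 125 CPM in BBA with IL-7 and at 1.85 and 1.07 CPM in BBA without cytokine, against 93.7 to 189.7 CPM in WT with IL-7. Gm5779, a processed pseudogene on chromosome 10, was at 0, 51.4 and 0 CPM in WT with IL-7 and at 53.2, 42.3 and 40.3 CPM in BBA. Arsb, the arylsulfatase B gene on chromosome 13, was at 75.8, 39.1 and 35.5 CPM in WT and 2.43, 2.0 and 11.2 CPM in BBA (log2 fold change -3.30 ± 0.86, adjusted p = 0.0379 by edgeR), and at 20.7 and 1.13 CPM in AAB. Its call was lost without BBA replicate 1 or 2 or any 1 of the WT libraries.

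Acvr1c, an activin receptor that no list held, stood at no more than 0.336 CPM in WT without cytokine and at 36.4, 33 and 37.1 CPM with IL-7. In BBA with IL-7 it was at 17.9, 6.08 and 18.5 CPM (-1.30 ± 0.33, adjusted p = 0.0351), and in AAB at 30.4 and 40.0 CPM. The call was lost without BBA replicate 3 or any 1 of the WT libraries.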
